A study of Homo sapiens with 6 samples.

Results

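The genes described here are 10 components of the Notch pathway: the receptors NOTCH1, NOTCH2 and NOTCH3, the ligands JAG1, JAG2 and DLL1, and the targets HES1, HES4, HEY1 and NRARP. They were matched by gene symbol in the expression table, which lists 17448 genes, and all 10 are among the 12951 genes that passed the filter on low counts. RNA-seq was performed on HCC2814, a human lung squamous cell carcinoma (LUSC) line. The WT group (n = 3) received a non-targeting sgRNA (sgCtrl), and the MLST8-KO group (n = 3) an sgRNA against MLST8, a subunit of both mTORC2 and mTORC1. The study's blots of this line show numbered sgControl and sgMLST8 samples. From them the study reports that MLST8 loss disrupted binding of mTOR to the mTORC2 subunit RICTOR and lowered phosphorylation of the mTORC2 substrate AKT. Its methods do not say whether the RNA-seq replicates of a group share the same guide. Both groups were treated with their sgRNA for 48 to 72 h, selected with an antibiotic, and grown in DMEM with fetal bovine serum. The replicates are described as independent experiments, and the study's methods describe selection of transduced cells without picking clones for this line, so the MLST8-KO samples may hold edited and unedited cells. In such pooled RNA, fewer cells that express a gene and less RNA per cell cannot be told apart.

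Notch receptors are single-pass membrane proteins that are activated by ligands on a neighbouring cell. Ligand binding exposes the receptor to ADAM proteases and then to gamma-secretase, which release the intracellular domain. That domain enters the nucleus, joins the DNA-binding protein RBPJ and a Mastermind co-activator, and switches on genes such as the HES and HEY families, which encode transcriptional repressors, and NRARP, whose product feeds back on the intracellular domain. In stratified squamous epithelium the pathway is best known for guiding basal keratinocytes into differentiation, and its receptors carry inactivating mutations in a share of squamous carcinomas.

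The promoters of HES1 and HES4 are shown first because they hold the same pair of RBPJ-type motifs, and both genes were higher in MLST8-KO cells. Promoter sequences were taken from the RefSeq table (GRCh38.p14), in which 8 of the 10 genes have an entry. The 250 bases upstream of each start site were searched on both strands for GTGGGAA and for GTGTGAA, and no match of the first overlaps a match of the second in the promoters shown. GTGGGAA is present in 5.43% of the 35116 promoters and GTGTGAA in 2.48%. Both motifs occur together in 0.188%. Among the 8 promoters, those of HES1 and HES4 hold both motifs and the other 6 hold neither. In the next lines the capitals mark GTGGGAA and TTCACAC. The latter is GTGTGAA read on the opposite strand. The HES1 stretch lies at chr3:194136063-194136092 on the plus strand, from base -85 to base -56 relative to the start site, outside the transcribed region. The HES4 stretch lies at chr1:1000145-1000174 on the minus strand, from base -77 to base -48 relative to the RefSeq start, while the HES4 gene of GENCODE release 29 begins further upstream, inside this stretch.
HES1: GTGGGAAagaaagtttgggaagtTTCACAC
HES4: GTGGGAAagaatgcggagccgggTTCACAC

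The arrangement of GTGGGAA, 16 bases and TTCACAC occurs in 2 promoters of the table, those of HES1 and HES4. It was written down after these promoters had been read, so the count is a description. Over the 30 bases 21 are identical between both genes, of which 14 are the motif bases by which the stretches were chosen, and 7 are among the 16 bases between them. For comparison, the upstream stretches of HES1 (chr3:194135898-194136144, plus strand, the 247 bases that end before the start) and of NRARP (chr9:137302272-137302521, minus strand, 250 bases) are given next, the former with both motifs in capitals. NRARP is shown as a further target that was higher in MLST8-KO cells, and neither motif is in its window. The absence says only that these letters are not there, and a match shows neither binding nor a response.
HES1 upstream: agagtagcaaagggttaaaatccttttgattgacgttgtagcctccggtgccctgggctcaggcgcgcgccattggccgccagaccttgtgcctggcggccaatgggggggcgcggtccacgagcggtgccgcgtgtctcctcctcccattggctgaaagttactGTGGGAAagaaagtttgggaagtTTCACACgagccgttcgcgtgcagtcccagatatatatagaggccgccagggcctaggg
NRARP upstream: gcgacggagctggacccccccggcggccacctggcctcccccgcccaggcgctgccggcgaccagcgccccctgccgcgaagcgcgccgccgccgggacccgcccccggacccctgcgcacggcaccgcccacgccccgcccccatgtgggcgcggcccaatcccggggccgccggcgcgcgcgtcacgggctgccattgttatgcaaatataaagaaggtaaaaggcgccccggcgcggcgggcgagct

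Estimated counts summed to between 14381673 and 15744154 per sample. Levels are given in CPM, which are counts relative to library size after TMM scaling, for comparisons between groups, and in TPM, which is scaled by gene length, for comparisons between genes. MLST8 (Entrez 64223, chr16:2204248-2209416, GRCh38) had 874, 827 and 842 counts in the 3 WT samples, against 395.82, 629 and 401 counts in those with the MLST8 guide. All MLST8-KO samples lay below WT, and replicate 2 kept the most transcript. It fell by 0.96 on the log2 scale (SE 0.15, adjusted p = 0.00339, edgeR), from 58.6 ± 1.97 to 30.0 ± 7.65 CPM (SD, n = 3), and 3.79% of its exonic bases are shared with BRICD5 on the opposite strand. Of the 8 squamous epithelial markers all were detected, while endothelial markers summed to 1.92 to 3.58 CPM, with CDH5, KDR and TEK at 3 counts or fewer in every sample. Fibroblast markers summed to 31.5 to 36.8 CPM, most of it COL1A1. Leukocyte markers summed to 40.6 to 78.3 CPM, nearly all of it CD68, with PTPRC at 1 count or 0 in every sample. Neuroendocrine markers summed to 0.866 to 1.54 CPM. MLST8-KO replicate 1 stood apart: genes of liver, cartilage and intestine summed to 269 CPM in it and to 0.577 to 7.50 CPM in the other 5 samples, so the calls are also given without that replicate.

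By the quasi-likelihood test of edgeR, adjusted after Benjamini and Hochberg over all 12951 genes, 5 of the 10 genes were higher in MLST8-KO than in WT cells at an adjusted p under 0.05, where 16.3% of all genes tested were higher. These were the ligand JAG2, the receptor NOTCH1 and the targets HES1, HES4 and NRARP. No member was lower (0 of 10 in edgeR, also at an unadjusted p under 0.05, and 0 in DESeq2), where 15.7% of all genes tested were lower and 32.0% changed in either direction. The median log2 fold change was 0.44 over the 10 genes and 0.00 over all genes tested. In 6 of the 10 genes every MLST8-KO sample was above every WT sample in CPM, which was the case for 24.8% of all genes tested. DESeq2 called the same 5 genes. Without MLST8-KO replicate 1, JAG2, NOTCH1, HES4 and NRARP stayed past the threshold and HES1 did not.

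**Figure D1:**
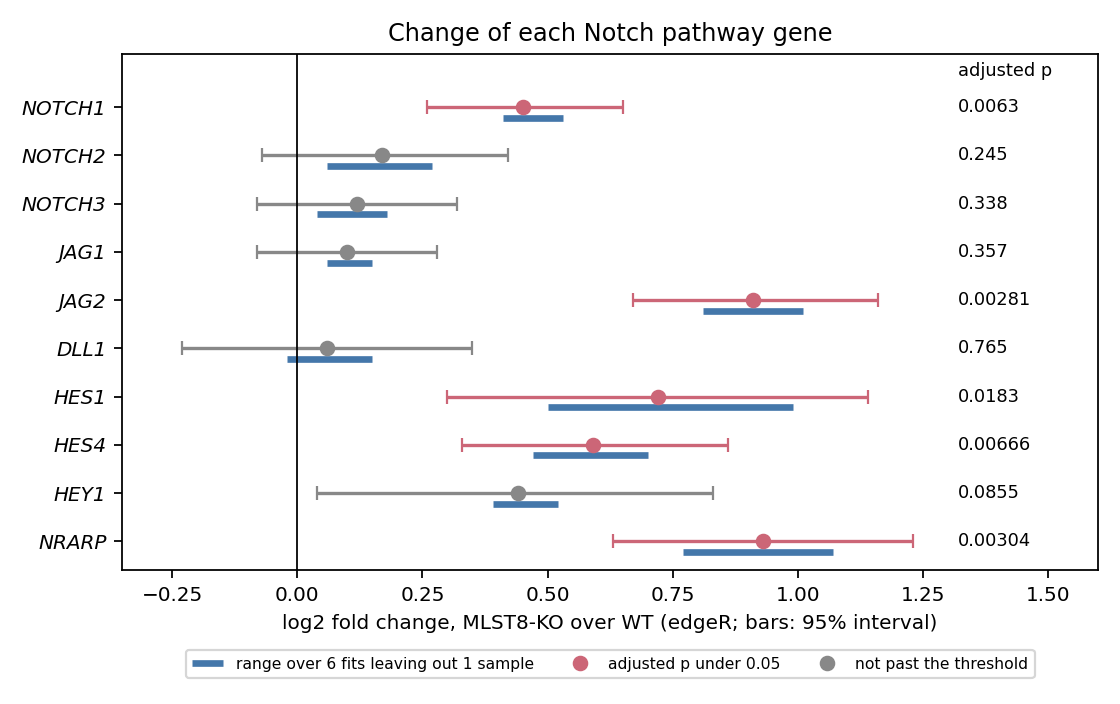
Log2 fold change of each of the 10 genes, MLST8-KO over WT (x axis, edgeR, n = 3 per group). Points are estimates, thin bars 95% intervals and thick blue bars the range over the 6 fits that each leave out 1 sample; JAG2 (0.91) and NRARP (0.93) lie farthest to the right, and the intervals of NOTCH2, NOTCH3, JAG1 and DLL1 include 0.

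JAG2 (Entrez 3714, chr14:105140981-105168824, GRCh38), a Jagged-type ligand presented on the cell surface, had 68.6, 61.6 and 51.2 CPM in WT replicates 1, 2 and 3. The MLST8-KO replicates had 119, 105 and 118 CPM. All 3 MLST8-KO samples lay above the WT samples, and WT replicate 3 was the lowest of the 6. JAG2 rose 1.88-fold, from 60.5 ± 8.73 to 114 ± 7.80 CPM (SD, n = 3; log2 fold change 0.91, SE 0.11, adjusted p = 0.00281, edgeR). The estimate ranged from 0.81 to 1.01 when 1 sample was left out, with an adjusted p of at most 0.0210. In the annotation 7.33% of its exonic bases are shared with AL512356.1, a transcript on the same strand that is not in the expression table.

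JAG1 (Entrez 182, chr20:10637684-10673999, GRCh38), the related Jagged ligand, had 150.0, 167 and 149 CPM in WT and 161, 176 and 163 CPM in MLST8-KO cells. The groups overlapped, since WT replicate 2 lay above 2 of the MLST8-KO samples. Its log2 fold change of 0.10 had a 95% interval from -0.08 to 0.28 (adjusted p = 0.357, edgeR). DLL1 (Entrez 28514, chr6:170282206-170306565, GRCh38), a Delta-type ligand, had 12, 12.1 and 13.3 CPM in WT and 13.4, 11.2 and 14.3 CPM in MLST8-KO cells. MLST8-KO replicate 2 was the lowest of the 6 samples, and the groups overlapped. Its log2 fold change of 0.06 had an interval from -0.23 to 0.35 (adjusted p = 0.765, edgeR) and was -0.02 without MLST8-KO replicate 3, so no direction is given. The intervals of JAG1 and DLL1 both end below the lower bound of 0.67 for JAG2.

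Among the receptors, NOTCH1 (Entrez 4851, chr9:136494433-136545786, GRCh38) had 40.7, 35.7 and 34.6 CPM in WT replicates 1, 2 and 3 and 50.1, 49.5 and 52.2 CPM in the MLST8-KO replicates. The 3 MLST8-KO samples were close together and all above WT replicate 1, the highest WT sample. NOTCH1 rose 1.37-fold, from 37.0 ± 3.25 to 50.6 ± 1.39 CPM (SD, n = 3; log2 fold change 0.45, SE 0.09, adjusted p = 0.00630, edgeR), and stayed past the threshold in all 6 fits that left out 1 sample (0.41 to 0.53).

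NOTCH3 (Entrez 4854, chr19:15159038-15200981, GRCh38) had 204, 193 and 169 CPM in WT and 190.4, 208 and 215 CPM in MLST8-KO cells. MLST8-KO replicate 1 lay below the WT replicates 1 and 2. The log2 fold change was 0.12 with a 95% interval from -0.08 to 0.32 (adjusted p = 0.338, edgeR), and it was -0.02 once a trend with GC content and transcript length was removed. NOTCH2 (Entrez 4853, chr1:119911553-120069626, GRCh38) had 62.2, 65.1 and 56.5 CPM in WT and 68.6, 79.2 and 59.5 CPM in MLST8-KO cells. MLST8-KO replicate 3 lay below 2 WT samples. Its log2 fold change was 0.17, with an interval from -0.07 to 0.42 (adjusted p = 0.245, edgeR). NOTCH2 is uncertain, because its estimated counts were not whole in any sample and it shares sequence with its partial copies NOTCH2NLA, NOTCH2NLB, NOTCH2NLC and NOTCH2NLR. The copies held between 2 and 121.93 counts per sample, against 782.51 to 1281.61 for NOTCH2. Summed with the 4 copies, an alternative added after the data had been seen, NOTCH2 had a log2 fold change of 0.08 (adjusted p = 0.526, edgeR).

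Of the targets, NRARP (Entrez 441478, chr9:137300482-137302251, GRCh38), a small ankyrin repeat protein that limits Notch signalling, had 37.9, 33.7 and 24.7 CPM in WT replicates 1, 2 and 3. The MLST8-KO replicates had 57.9, 61.3 and 64.6 CPM. All MLST8-KO samples were above all WT samples, and WT replicate 3 was again the lowest. NRARP rose 1.91-fold, from 32.1 ± 6.77 to 61.3 ± 3.34 CPM (SD, n = 3; log2 fold change 0.93, SE 0.14, adjusted p = 0.00304, edgeR), with a range of 0.77 to 1.07 when 1 sample was left out and an adjusted p of at most 0.0210.

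HES4 (Entrez 57801, chr1:998962-1000172, GRCh38), a HES-family repressor, had 22.4, 23.1 and 24.2 CPM in WT and 34.6, 30.0 and 40.7 CPM in MLST8-KO cells. The WT samples were nearly level and the MLST8-KO samples were more spread, without overlap. It rose 1.51-fold, from 23.2 ± 0.924 to 35.1 ± 5.34 CPM (SD, n = 3; log2 fold change 0.59, SE 0.12, adjusted p = 0.00666, edgeR), and stayed past the threshold in all 6 fits that left out 1 sample (0.47 to 0.70). With 73.9% G and C in its longest transcript, HES4 is the most GC-rich of the 10 genes. Its log2 fold change was 0.62 after a trend with GC content and transcript length was removed, a value without a test.

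HES1 (Entrez 3280, chr3:194136145-194138732, GRCh38), the best known Notch target and a repressor of differentiation genes in many tissues, had 71.0, 52.7 and 35.6 CPM in WT replicates 1, 2 and 3. The MLST8-KO replicates had 87.7, 83.0 and 92.2 CPM. The groups did not overlap, but the WT samples were spread over a range of about the size of the difference, with replicate 1 highest and replicate 3 lowest. HES1 rose 1.65-fold, from 53.1 ± 17.7 to 87.6 ± 4.59 CPM (SD, n = 3; log2 fold change 0.72, SE 0.19, adjusted p = 0.0183, edgeR). This call was the least stable of the 5: it was past the threshold in 2 of the 6 fits that left out 1 sample. The log2 fold change was 0.71 (adjusted p = 0.0668) with WT replicate 2 left out. With MLST8-KO replicate 1, 2 or 3 left out in turn it was 0.72 (adjusted p = 0.0586), 0.76 (0.0543) and 0.68 (0.0667), and it was 0.50 to 0.99 over all 6 fits.

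HEY1 (Entrez 23462, chromosome 8), a repressor of the HEY family, was the least abundant of the targets. It had 47, 48 and 48 counts in WT and 74, 76 and 61 counts in MLST8-KO cells, or 3.12, 3.31 and 3.46 against 4.77, 4.69 and 3.91 CPM. All MLST8-KO samples were above all WT samples, with MLST8-KO replicate 3 nearest to them. The threshold was not passed in edgeR (log2 fold change 0.44, 95% interval 0.04 to 0.83, adjusted p = 0.0855) or in DESeq2 (adjusted p = 0.254). Limma on log2(TPM + 1) gave an adjusted p of 0.0314, on a scale where the median of all genes tested was shifted upward by 0.09.

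Set side by side in TPM, HES1 had the highest level of the 10 genes in both groups, at 72.8 ± 25.6 TPM in WT and 129 ± 3.10 TPM in MLST8-KO cells (SD, n = 3). HEY1 had the lowest, at 2.74 ± 0.104 and 4.01 ± 0.534 TPM. In WT cells HES1 was followed by JAG1 (47.4 ± 4.0), HES4 (44.8 ± 0.662) and NOTCH3 (42.8 ± 4.77 TPM), and each of these 4 overlapped with its neighbour in the order. NRARP (23.2 ± 5.29) and JAG2 (19.6 ± 3.25 TPM) overlapped with each other but with no gene above or below them in the order. NOTCH2 (9.64 ± 0.901 TPM) was separate from NOTCH1 (7.59 ± 0.879), whose values overlapped with those of DLL1 (7.12 ± 0.306).

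In MLST8-KO cells HES4 (73.3 ± 9.68 TPM) stood alone between HES1 and JAG1. JAG1 (54.8 ± 3.97), NOTCH3 (50.1 ± 2.72) and NRARP (47.7 ± 2.08 TPM) each overlapped with the next, and JAG2 (39.3 ± 2.21 TPM) came below NRARP without overlap. NOTCH2 (11.7 ± 2.01) and NOTCH1 (11.3 ± 0.0907 TPM) overlapped, and DLL1 was at 7.97 ± 0.833 TPM. TPM values were shifted by a median of 0.09 on the log2(TPM + 1) scale between the groups over all genes tested, so a TPM difference of that size is shared with the average gene.

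**Figure D2:**
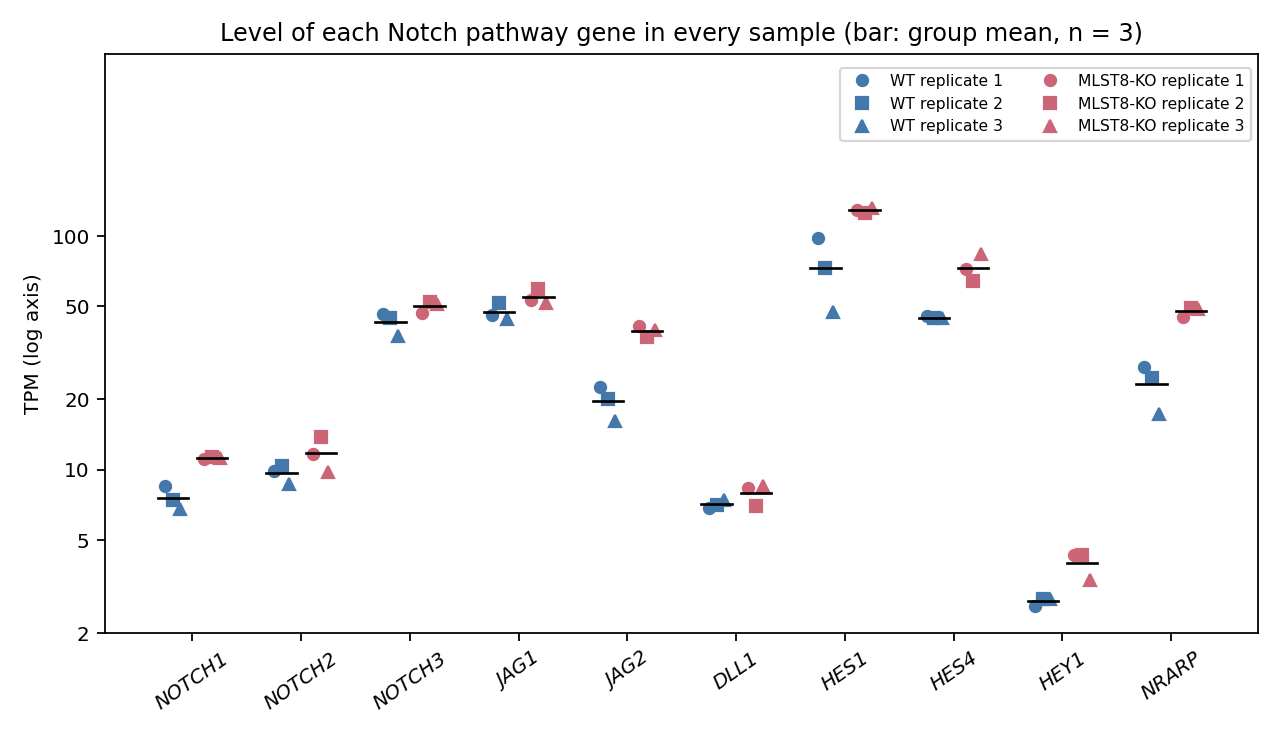
Level of each of the 10 genes in every sample, in TPM as deposited (log axis; blue WT, red MLST8-KO; symbols mark replicates 1 to 3 and bars group means). On this scale the groups do not overlap for NOTCH1, NOTCH3, JAG2, HES1, HES4, HEY1 and NRARP (NOTCH3 overlaps in CPM), and the 3 WT values of HES1 span 47.2 to 98.4 TPM.

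The makeup of the receptors and ligands among the 10 genes was described as each gene's share of their summed TPM in a sample. Ligands outside the 10 genes were left out, among them DLL3 (8.89 ± 1.35 TPM in WT, 7.22 ± 0.906 in MLST8-KO cells) and DNER (6.66 ± 0.746 and 6.61 ± 0.462 TPM). The 3 receptors summed to 60.0 ± 6.32 TPM in WT and 73.1 ± 3.83 TPM in MLST8-KO cells, and NOTCH3 held most of it (71.2% ± 0.478 and 68.5% ± 1.97, SD, n = 3). The share of NOTCH1 was 13.2%, 11.9% and 12.9% in WT and 16%, 14.7% and 15.7% in MLST8-KO cells. The 3 ligands summed to 74.1 ± 5.80 TPM in WT and 102 ± 1.87 TPM in MLST8-KO cells. JAG2 made up 29.9%, 25.5% and 23.8% of the ligand sum in WT and 40.2%, 35.8% and 39.6% in MLST8-KO cells. The JAG1 share was 63.9% ± 2.51 in WT and 53.7% ± 3.26 in MLST8-KO cells, so JAG1 was the main one of these 3 ligands by level in both groups.

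Ratios within a sample do not depend on library scaling, and 6 ratios between receptors and between ligands were compared by a two-sided exact permutation test, whose smallest possible p with 3 against 3 samples is 0.1. The log2 ratio of JAG2 to JAG1 was -1.28 ± 0.22 in WT and -0.48 ± 0.18 in MLST8-KO cells (SD, n = 3, difference 0.81, exact permutation p = 0.1, adjusted p = 0.2 over the 6 ratios). The ratio of JAG2 to DLL1 differed by 0.86 and that of NOTCH1 to NOTCH3 by 0.34, each with the same p values and with no overlap between the groups. The other 3 ratios overlapped between the groups. None of the 6 could have passed a threshold of 0.05.

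**Figure D3:**
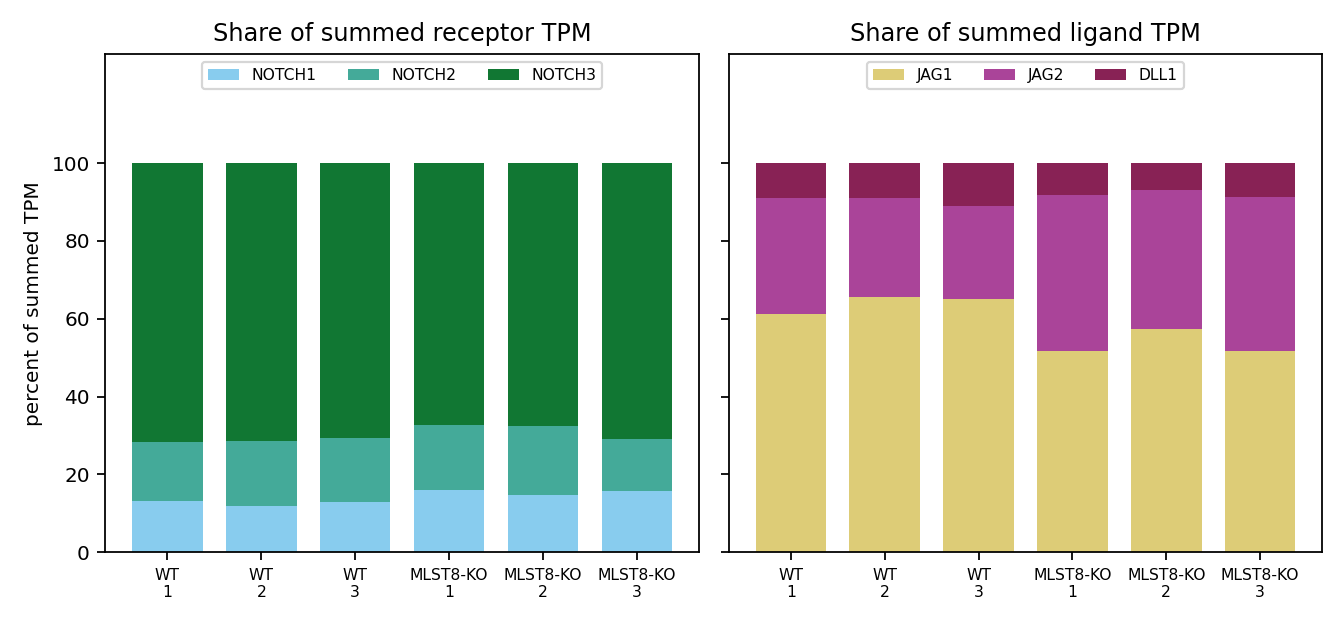
Share of each receptor (left) and each ligand (right) in the summed TPM of its family, in percent, for every sample. JAG2 takes 23.8% to 29.9% of the ligand sum in WT and 35.8% to 40.2% in MLST8-KO samples, and NOTCH3 is the largest receptor share in all 6.

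Squamous markers are given beside the Notch genes because they differed between the same groups. The 8 markers summed to 20937, 16417 and 13962 CPM in WT replicates 1, 2 and 3 and to 26850.2, 23970.1 and 25446 CPM in the MLST8-KO replicates. Of the 8, 6 were higher (KRT5, KRT6A, KRT14, KRT17, TP63 and DSG3) and 0 lower, while EPCAM and CDH1 did not pass the threshold. Without MLST8-KO replicate 1, KRT14, KRT17 and DSG3 stayed past it. KRT5 (log2 fold change 0.48, adjusted p = 0.0690, edgeR), KRT6A (0.33, 0.0915) and TP63 (0.45, 0.0715) did not, against 0.52, 0.34 and 0.47 with all samples. The latter were past it in 2, 2 and 3 of the 6 fits that left out 1 sample, and DSG3 was in 4. WT replicate 3 had the lowest and WT replicate 1 the highest sum of the WT group. The same order held for JAG2, NOTCH1, HES1 and NRARP, and also for NOTCH3, which was not past the threshold. In CPM, HES4, HEY1 and DLL1 were highest in WT replicate 3, and NOTCH2 and JAG1 in WT replicate 2. HES4 (338, 335 and 336 counts) and HEY1 (47, 48 and 48) were nearly level over the WT samples. In TPM, HES4 was highest in WT replicate 1. WT replicate 3 was the lowest WT sample in 7 of the 10 Notch genes and in 39.2% of all genes tested, and WT replicate 1 the highest in 5 of 10 and in 38.3%. Of the other markers, CD68 was lower in MLST8-KO cells (40.3 to 55.2 CPM) than in WT cells (53.3 to 77.8 CPM, adjusted p = 0.0413, edgeR), with overlapping groups, and the endothelial marker PECAM1 was lower at 7 to 22 counts (adjusted p = 0.0180). Both calls held in 2 of the 6 fits that left out 1 sample and were lost without MLST8-KO replicate 1 (CD68 0.154, PECAM1 0.0508), and DESeq2 did not call PECAM1 (adjusted p = 0.0717). Of the genes of liver, cartilage and intestine, edgeR called AFP (adjusted p = 0.0483), FGA (0.0493), FGB (0.0438) and COL2A1 (0.0410) higher. These calls came from MLST8-KO replicate 1, which had 849 counts of AFP against 16 and 8 in MLST8-KO replicates 2 and 3. Without that replicate the adjusted p of these genes was 0.439 to 0.919 (edgeR). The part of these cell type markers in the changes of the Notch genes was not tested.

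**Figure D4:**
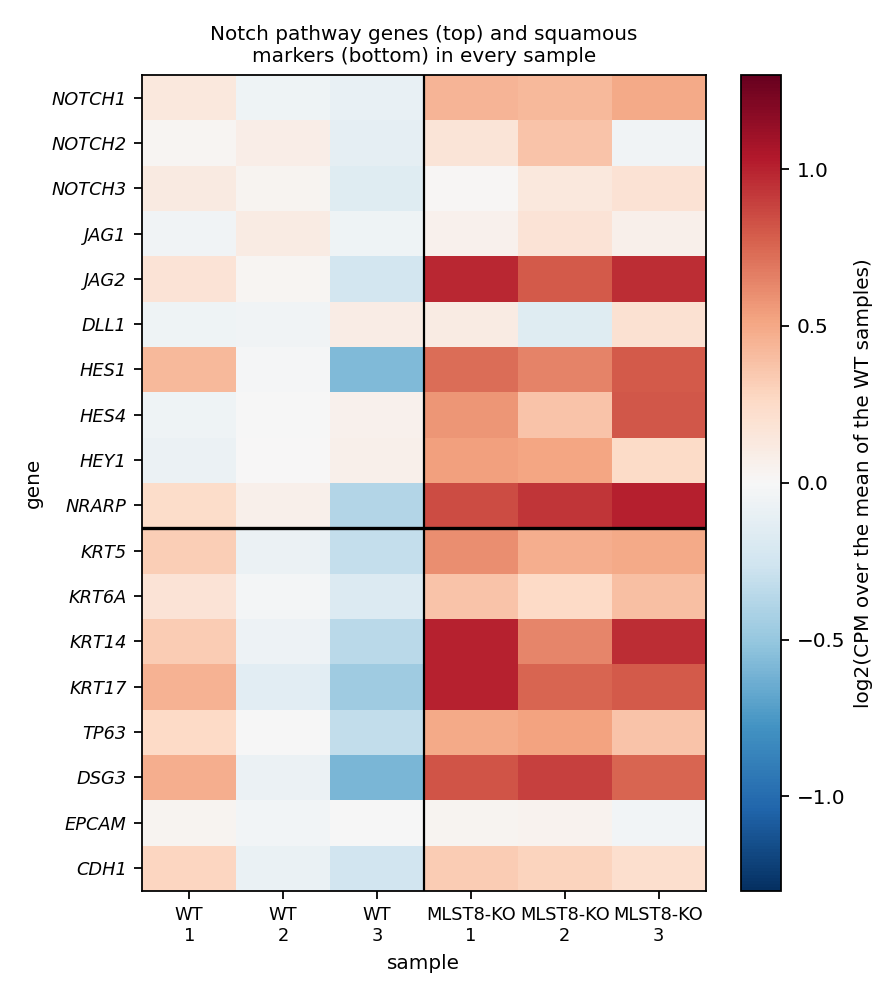
CPM of the 10 Notch genes (top) and 8 squamous markers (bottom) in every sample, as log2 of the ratio to the WT mean (colour; columns are the 6 samples). JAG2, HES1, NRARP and most of the squamous markers are bluest in WT replicate 3 and red in all 3 MLST8-KO samples.

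The wider pathway was described with 74 further genes in 8 lists, of which 65 passed the filter. At an adjusted p under 0.05, 15 of the 65 were higher and 10 lower in MLST8-KO cells, and the median log2 fold change was 0.09. Over all genes tested 16.3% were higher and 15.7% lower. Of the 15 higher genes 7 stayed past the threshold in all 6 fits that left out 1 sample, and of the 10 lower genes 4 did. Without MLST8-KO replicate 1 the counts were 7 higher and 5 lower of 66 tested. Over all 13071 genes tested in that fit, 979 were higher and 850 lower, against 2116 and 2030 of 12951 with all samples.

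Among other receptors and ligands, DLK2, a non-canonical ligand related to the Delta proteins, rose from 1.56 ± 0.224 to 3.68 ± 0.197 CPM (log2 fold change 1.23, adjusted p = 0.00422, edgeR). DLL3, a ligand that acts inside the cell, had a log2 fold change of -0.41 (adjusted p = 0.0815) and the neuronal ligand DNER of -0.11 (adjusted p = 0.541). NOTCH4, DLL4 and DLK1 were below the filter. NOTCH4 had at most 4 counts in any sample, and DLL4 had 4, 5 and 15 counts in WT and 1, 2 and 0 in MLST8-KO cells. With no filter on low counts the adjusted p of DLL4 was 0.0295 in edgeR, in the lower direction. DLK1 had 6, 0 and 1 counts in MLST8-KO cells and 0 in every WT sample.

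Of the 9 genes for receptor cleavage, 2 were higher and 0 lower, with a median log2 fold change of -0.00. Both encode parts of gamma-secretase: NCSTN, or nicastrin, rose from 89.4 ± 10.6 to 125 ± 4.4 CPM (log2 fold change 0.48, adjusted p = 0.00639, edgeR), and PSEN2, a catalytic presenilin, from 13.1 ± 0.854 to 17 ± 0.677 CPM (0.37, adjusted p = 0.0288). The PSEN2 call was lost in each of the 6 fits that left out 1 sample. The proteases ADAM10 (0.19, adjusted p = 0.121) and ADAM17 (-0.19, adjusted p = 0.0887) were not past it. Of the 9 genes for receptor glycosylation, 1 was higher and 3 were lower. LFNG, the Lunatic fringe glycosyltransferase, which alters the ligand preference of the receptors, rose from 11.2 ± 3.47 to 19.0 ± 2.73 CPM (0.76, adjusted p = 0.0191). The other fringe enzymes fell, MFNG from 2.08 ± 0.196 to 0.972 ± 0.0623 CPM (-1.09, adjusted p = 0.0114) and RFNG from 30.8 ± 1.35 to 23.2 ± 3.05 CPM (-0.41, adjusted p = 0.0214). POGLUT1, which adds O-glucose to the receptors, fell from 39.5 ± 1.90 to 28.2 ± 2.25 CPM (-0.49, adjusted p = 0.00593). Without MLST8-KO replicate 1 the calls of LFNG (log2 fold change 0.67, adjusted p = 0.0763, edgeR), MFNG (-1.04, 0.0546) and RFNG (-0.31, 0.0923) were lost. That of POGLUT1 was kept. Over the 6 fits that left out 1 sample LFNG was past the threshold in 3, MFNG in 5, RFNG in 3 and POGLUT1 in 6.

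In the nuclear complex, 1 of 8 genes was higher and 0 were lower. RBPJ itself had 37.7 ± 3.21 CPM in WT and 36.0 ± 2.67 CPM in MLST8-KO cells (log2 fold change -0.06, adjusted p = 0.635, edgeR). The Mastermind gene MAML2 rose from 0.869 ± 0.225 to 1.98 ± 0.444 CPM (1.18, adjusted p = 0.0179), at 10 to 36 counts per sample. Of the 11 co-repressor genes, 4 were higher and 0 lower. Among the higher genes were TLE3, a Groucho-type partner of HES proteins (0.87, adjusted p = 0.00717), L3MBTL3 (0.68, adjusted p = 0.0168) and CTBP2 (0.37, adjusted p = 0.0170). Without MLST8-KO replicate 1 TLE3 stayed past the threshold, and MAML2 (log2 fold change 1.08, adjusted p = 0.0736, edgeR), L3MBTL3 (0.65, 0.0662) and CTBP2 (0.31, 0.0843) did not. The latter were past it in 3, 4 and 4 of the 6 fits that left out 1 sample.

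Of the 16 genes for endocytosis and turnover, 14 were tested, 2 were higher and 5 lower. The E3 ubiquitin ligases DTX3L (0.55, adjusted p = 0.0109, edgeR) and NEURL1B (0.42, adjusted p = 0.0387) rose. ITCH, a ligase that marks Notch for degradation, fell from 183 ± 9.44 to 124 ± 11.0 CPM (-0.56, adjusted p = 0.00342). DTX2 (-0.52, adjusted p = 0.00583), MIB1, which ubiquitinates the ligands (-0.36, adjusted p = 0.0309), and FBXW7, which targets the intracellular domain (-0.35, adjusted p = 0.0327), also fell. ITCH and DTX2 kept their calls without MLST8-KO replicate 1. DTX3L (log2 fold change 0.52, adjusted p = 0.0501, edgeR), NEURL1B (0.46, 0.0778), MIB1 (-0.36, 0.0949) and FBXW7 (-0.38, 0.0796) lost them. Over the 6 fits DTX3L and MIB1 were past the threshold in 3 each, and NEURL1B and FBXW7 in 1 each. NEURL1 (4 to 12 counts) and DTX1 (0 to 3.46 counts) were below the filter.

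Of the 7 other HES and HEY genes, 4 were tested, of which 2 were higher and 0 lower. The WT samples had 196, 138 and 103 counts of HES2 and the MLST8-KO samples 474, 401 and 416, without overlap. It rose from 9.98 ± 2.82 to 27.3 ± 2.97 CPM (log2 fold change 1.45, SE 0.18, adjusted p = 0.00281, edgeR), and was past the threshold in all 6 fits that left out 1 sample. HEYL rose from 5.79 ± 0.464 to 7.96 ± 0.751 CPM (0.46, adjusted p = 0.0416), a call that was lost in each of the 6 fits. HES5 had 4, 2 and 1 counts in WT and 18, 10 and 15 counts in MLST8-KO cells, which is below the filter. With no filter on low counts its adjusted p was 0.00945 in edgeR. HES3 (0 to 2 counts) and HES7 (1 to 5 counts) were also below it. HES6 (-0.20, adjusted p = 0.541) and HEY2 (0.28, adjusted p = 0.407) did not pass the threshold.

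The list of keratinocyte differentiation genes downstream of Notch did not move as a block. Of its 8 genes 7 were tested, with 2 higher and 2 lower. KRT1, the suprabasal keratin of skin, rose from 20.6 ± 14.3 to 113 ± 18 CPM (log2 fold change 2.45, adjusted p = 0.00370, edgeR) and KRT13, the suprabasal keratin of mucosa, from 13.6 ± 8.31 to 52.9 ± 5.09 CPM (1.95, adjusted p = 0.00397). WT replicate 3 was the lowest sample for both, with 87 counts of KRT1 and 78 of KRT13. KRT10, the usual partner of KRT1, had a log2 fold change of -0.56 and was not past the threshold in edgeR (adjusted p = 0.0722). It was past it in the lower direction with DESeq2 (adjusted p = 0.0344) and in edgeR without MLST8-KO replicate 1 (-0.79, adjusted p = 0.0458). CDKN1A, the cell cycle inhibitor p21, fell from 167 ± 5.90 to 125 ± 5.44 CPM (-0.42, adjusted p = 0.00482). IVL (0.21, adjusted p = 0.340) and TGM1 (0.58, adjusted p = 0.118) did not pass, and KRT4 (1 to 8 counts) was below the filter.

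**Figure D5:**
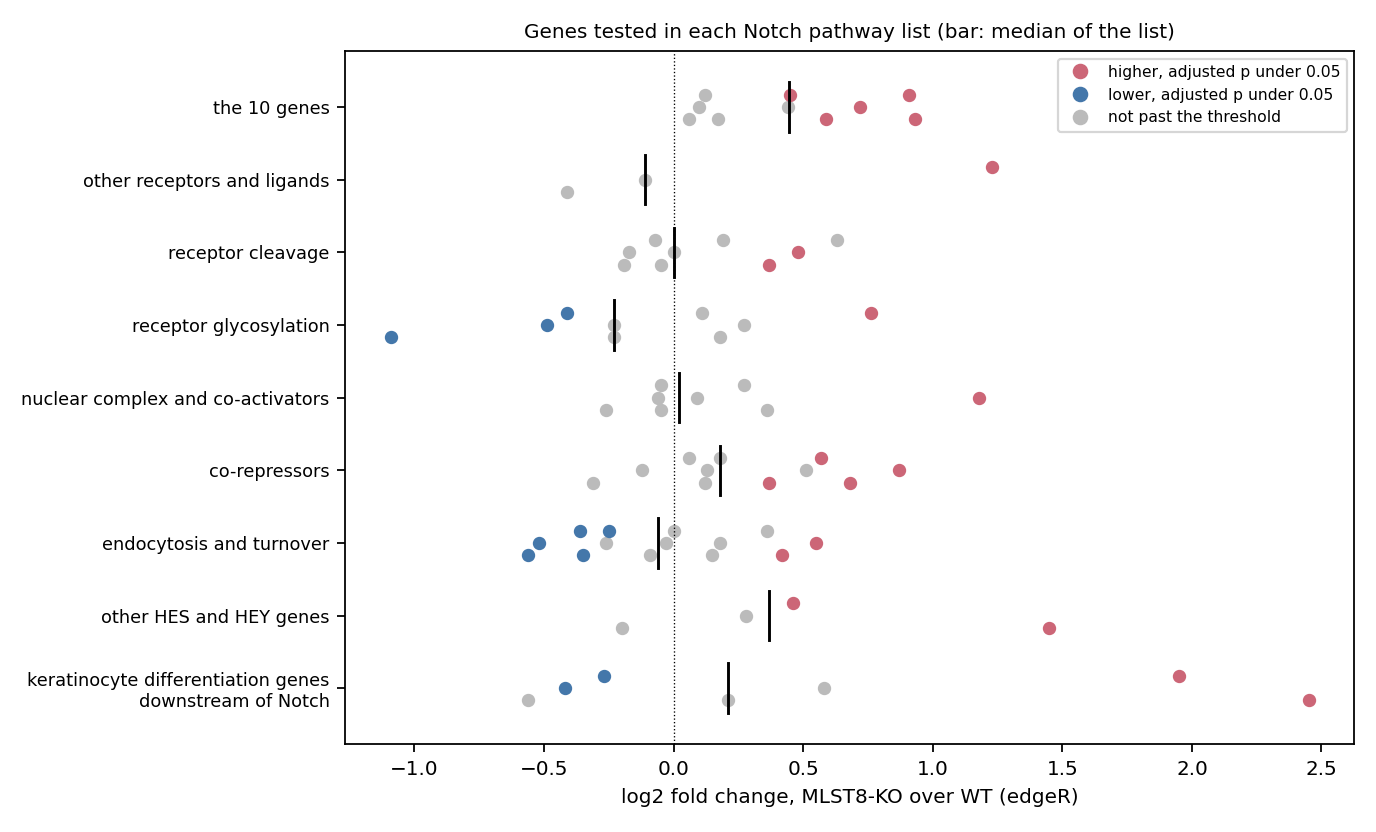
Log2 fold change (x axis, edgeR, MLST8-KO over WT) of each gene tested in the 10 genes and in the 8 pathway lists; 1 point is 1 gene, red higher, blue lower, grey not past an adjusted p of 0.05, and black bars are list medians. The 10 genes hold 5 red points and 0 blue ones, while receptor glycosylation and endocytosis and turnover hold more blue than red points.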

How the data were processed

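The deposited table holds, for each gene and sample, estimated counts, which the authors obtained after filtering reads, aligning them to GRCh38.p12 with HISAT and assigning them to reference genes with Bowtie2 (versions not given in the sources used here), and the FPKM and TPM the authors derived from them. FPKM was not used. A second table with the authors' own DESeq2 comparison (fold changes, p-values and q-values) was not used. Per the labels, libraries were polyA selected. Of the estimated counts 12.4% were not whole (tolerance 1e-09), and all were rounded, although the design assumed whole counts. Spreadsheet dates in place of 25 gene symbols were restored.

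Replicates of a group differed by more than sampling noise (chi-square per gene 6.71 to 25.2). Groups (3 WT, 3 MLST8-KO) were compared with edgeR 4.0.16 in R 4.3.3 (TMM, filterByExpr by group, glmQLFit and glmQLFTest, no replicate block), with Benjamini-Hochberg adjustment over 12951 genes and a threshold of 0.05. The SE is the absolute log2 fold change over the square root of F. The fit was also run on counts simulated from its own dispersions, without an outlying sample, and no result given here rests on that run. Tried as alternatives were RLE and upper quartile scaling, no filter, a minimum of 10 counts per sample, DESeq2 1.42.0, a replicate block, limma 3.58.1 on log2(TPM + 1) and log2(TPM + 0.1), removal of a GC and length trend, and leaving out each sample. With a count of 0, up to 3 counts (0.209 CPM at the lowest depth) remain possible, counting error alone considered. Gene positions are those of GENCODE release 29; GC content was known for 98.8% of genes tested. Promoters are from RefSeq (GRCh38.p14). Figures used matplotlib 3.10.9.

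The 10 genes, the lists and the alternatives were chosen with earlier results of these data known. Named are all 10 genes, MLST8, at most 4 genes per direction and list that passed the threshold, genes below the filter, and others with values only. Some items are not reported here.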

Additional observations from a re-analysis of the deposited data

How the results depend on the processing

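The call counts for the 10 genes stayed within 4 to 6 higher and at 0 lower under each alternative that gives calls; removal of the GC and length trend gives none. Reversed values were those of NOTCH3, -0.02 after removal of the GC and length trend and -0.02 with the replicate block added to it, and of DLL1, -0.02 to 0.15 over the fits that left out 1 sample; both were not past the threshold. Removal of the GC and length trend moved NOTCH1 to 0.32 and JAG2 to 0.78 (0.79 with the block); these are values without a test. HEY1 passed with limma on log2(TPM + 1) (0.42, adjusted p = 0.0314) and log2(TPM + 0.1) (0.52, adjusted p = 0.0372). The number of lower pathway genes was 6 in place of 10 with upper quartile scaling and with limma on log2(TPM + 1) and on log2(TPM + 0.1). Leaving out 1 sample gave 7 to 19 higher pathway genes (9 without WT replicate 2, 7 without MLST8-KO replicate 1) and 5 to 13 lower (5 without either of these, 6 without MLST8-KO replicate 2 or 3); the causes were not tested. Over all genes tested, 51.0% of calls were higher, against 62.0% with upper quartile scaling (2546 higher, 1559 lower) and 71.0% with limma on log2(TPM + 1) (2782 higher, 1134 lower); leaving out 1 sample gave 971 to 2692 higher and 850 to 2651 lower genes.

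Replicate numbers were not used to pair the samples in the main test. Deviations of same-numbered samples correlated weakly, at 0.10, 0.06 and 0.14, and those of differently numbered samples at -0.12 to 0.02. Every sample correlated best with its own number, a weak hint from the data and not the design. The deviations were taken from means of 3 samples, so these correlations are tied to each other and are not separate matches. With the replicate block, 5 of the 10 genes were higher and 0 lower, 16 pathway genes higher and 11 lower, and 2261 and 2157 of all genes. With 3 samples per group and nothing but these samples to set the spread, differences as small as the intervals of NOTCH2, NOTCH3, JAG1 and DLL1 allow were not detectable.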
